A study of Homo sapiens with 12 samples.

Results

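The AP-1 and EGR immediate early genes are 10 of the 26364 genes in the deposited count table, taken by gene symbol: FOS, FOSB, JUN, JUNB, JUND, EGR1, EGR2, EGR3, IER2 and IER3. They were followed in libraries labelled as 2 established lines of mantle cell lymphoma, a B-cell cancer, JeKo-1 and Granta-519. The lines grew in RPMI1640 medium with fetal bovine serum. Cells received 4 µM chidamide, a benzamide inhibitor of class I histone deacetylases, or vehicle. RNA was taken after 12 h, giving 3 polyadenylated libraries for each of 4 groups. Whether the replicates were grown apart is not in the labels, and a p-value here speaks to library-to-library spread, possibly technical. All 10 members passed the filter on low counts and were tested among 15087 genes. EGR2 and EGR3 passed it only through Granta-519, and a fit of the groups labelled JeKo-1 alone left them out.

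Immediate early genes are switched on within minutes of a stimulus without new protein synthesis, mostly through MAP kinases acting on serum response factor and its ELK partners at CArG boxes and on CREB at cyclic AMP response elements, and their messages are short-lived. FOS and JUN proteins pair through leucine zippers to form the transcription factor AP-1, which binds TGANTCA, while EGR proteins are zinc finger factors that bind GCGNGGGCG. In B cells both groups answer the antigen receptor and growth signals. A library taken many hours into a treatment shows the level at that time and not the first wave.

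Libraries held 12873642 to 16592694 counts. The 8 fixed B-cell markers were all present in every group, with a summed level of 2960 to 4510 CPM (the count scaled to library size by TMM) over the 12 libraries. SOX11, whose transcription factor marks most mantle cell lymphomas, had 0 counts in each of the groups labelled JeKo-1, which allows up to 3 counts over a group, against 7225 counts over the 3 Granta-519 vehicle libraries. CCND1, the cyclin gene translocated in this lymphoma, had 5 counts over the 3 vehicle libraries labelled JeKo-1 and 97605 in Granta-519. JeKo-1 cells are known to express both SOX11 and CCND1, and the libraries are therefore called by their label. CD5, also a fixed marker of this lymphoma, had 6 counts in vehicle and 5 in chidamide under the JeKo-1 label, against 49 and 295 in Granta-519. Markers of other cell types were higher with the drug: the summed level of 12 myeloid markers went from 5.30 to 8.82 CPM in vehicle to 45.7 to 46.7 CPM in chidamide under the JeKo-1 label and from 29.4 to 30.5 CPM to 99.2 to 107 CPM in Granta-519, of which ITGAM, an integrin gene, made up 24.2 and 79.3 CPM on average with the drug. MPO and ELANE, which define granulocyte precursors, had 0 counts in both groups labelled JeKo-1 and in Granta-519 with chidamide. Of 12 markers of T and natural killer cells 11 were in the table, with summed levels of 3.07 to 5.25 CPM in vehicle and 6.40 to 8.92 CPM in chidamide under the JeKo-1 label, and 3.07 to 3.86 and 14.8 to 18.6 CPM in Granta-519, where CD3D and CD3G of the T-cell receptor complex had 0 counts in both groups. The 11 epithelial and stromal markers summed to 26.2 to 30.3 and 37.1 to 41.1 CPM under the JeKo-1 label and to 68.7 to 72.1 and 90.5 to 97.0 CPM in Granta-519. Most of this was the collagen gene COL1A1, with means of 26.7 and 31.6 CPM under the JeKo-1 label and 59.6 and 65.6 CPM in Granta-519. COL3A1, another collagen gene, had 0 counts in all 4 groups. Other markers of these lists did have counts that went up. CSF1R, a myeloid marker, had 7 and then 411 counts under the JeKo-1 label and 45 and then 859 in Granta-519. CD3E went from 4 to 68 counts under the JeKo-1 label, and CD247 from 114 to 553 and CDH1 from 131 to 450 in Granta-519. The myeloid marker CD68 stayed at 3.89 and 3.88 CPM under the JeKo-1 label and at 3.31 and 3.08 CPM in Granta-519. The part of such markers in the results below was not tested. In bulk RNA, fewer cells that express a gene and less RNA per cell cannot be told apart.

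Promoter windows from RefSeq (GRCh38.p14, 250 bases before to 50 after the annotated start) matched 8 of the 10 members by symbol, and those of EGR3 and IER3 were not used here. The 4 printed below are the windows of FOS and JUN, which rose in both lines, and of EGR1 and EGR2, whose vehicle levels differed most between lines among members with a window. They lie at chr14:75278578-75278877 on the plus strand (FOS), chr1:58783998-58784297 on the minus strand (JUN), chr5:138465229-138465528 on the plus strand (EGR1) and chr10:62816317-62816616 on the minus strand (EGR2, which has 3 windows, of which this is the only 1 with a CArG box). Capitals mark TGACG, the core of the cyclic AMP response element, in FOS, the AP-1-like TGACATCA in JUN, and CArG boxes in EGR1 and EGR2.
FOS: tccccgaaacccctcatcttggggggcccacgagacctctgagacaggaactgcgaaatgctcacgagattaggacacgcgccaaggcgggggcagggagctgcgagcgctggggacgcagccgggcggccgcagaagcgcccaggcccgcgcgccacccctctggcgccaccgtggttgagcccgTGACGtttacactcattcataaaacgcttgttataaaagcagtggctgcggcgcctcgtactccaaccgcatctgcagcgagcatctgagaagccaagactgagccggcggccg
JUN: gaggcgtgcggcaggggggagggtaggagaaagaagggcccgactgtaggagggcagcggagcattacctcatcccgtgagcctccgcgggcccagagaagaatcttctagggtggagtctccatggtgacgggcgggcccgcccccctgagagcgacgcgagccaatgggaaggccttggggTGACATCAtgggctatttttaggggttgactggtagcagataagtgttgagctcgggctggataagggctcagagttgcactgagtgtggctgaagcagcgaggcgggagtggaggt
EGR1: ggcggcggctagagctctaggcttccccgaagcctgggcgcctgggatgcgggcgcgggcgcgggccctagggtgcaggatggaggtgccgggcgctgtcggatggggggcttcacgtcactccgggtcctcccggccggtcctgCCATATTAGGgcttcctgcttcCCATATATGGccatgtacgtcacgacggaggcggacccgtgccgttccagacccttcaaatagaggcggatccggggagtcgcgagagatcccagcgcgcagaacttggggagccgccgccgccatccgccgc
EGR2: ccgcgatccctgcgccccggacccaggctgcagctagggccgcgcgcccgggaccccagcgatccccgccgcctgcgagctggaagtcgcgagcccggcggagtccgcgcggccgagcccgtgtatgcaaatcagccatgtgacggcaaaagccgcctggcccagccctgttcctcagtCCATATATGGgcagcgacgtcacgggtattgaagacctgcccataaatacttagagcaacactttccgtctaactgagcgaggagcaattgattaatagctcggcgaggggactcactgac

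Motifs were searched on both strands over all 35116 windows of this length. A CArG box was present in 1.29% of them, and among members in EGR1, with 2 boxes, and EGR2. TGACATCA was in 2.61% of windows and, of the members, in JUN. The full element TGACGTCA was in 1.85% and, of the members, in JUND. The 5-base core TGACG, which is contained in TGACGTCA, was in 24.6% of all windows and in at least 1 window of each of the 8 members. The EGR site GCGNGGGCG was in 9.43% of windows, and among members in that of EGR1 and in a window of EGR2 other than the printed one (chr10:62818726-62819025). TGANTCA, found in 7.71%, was in no member's window. A match describes letters and not a bound site.

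The first comparison asked how chidamide changed these genes in the libraries labelled JeKo-1. Of the 10 members 9 rose and 0 fell, against 35.3% of all tested genes that were higher and 31.1% that were lower (quasi-likelihood test in edgeR, p adjusted over 15087 genes by Benjamini-Hochberg). Of all calls, 53.1% were higher, a share that upper-quartile scaling turned into 64.9% and library-size scaling into 63.7%. The chidamide libraries lay above all vehicle libraries in 8 members and below them in 0, against 35.2% and 31.4% of tested genes. The median log2 change of the 10 was 1.22, beside 0.04 over all tested genes. EGR2 and EGR3 are among the 9 rises and in this median, although they passed the filter on low counts only through Granta-519. IER3 rose about 11.5-fold, FOS 3.99-fold and JUN 2.94-fold, while JUNB, IER2 and JUND, the most abundant members, rose by smaller steps of 1.51-fold, 1.44-fold and 1.29-fold.

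The same question was put to Granta-519, where 6 members rose, IER3, FOS, JUN, JUND, IER2 and EGR2, and 1, EGR3, fell, against 39.6% of tested genes higher and 31.3% lower by the same edgeR test. Of all calls, 55.8% were higher, or 64.0% with upper-quartile scaling, 49.9% with no filter on low counts and 49.3% in a fit of these 2 groups alone. The libraries did not overlap in these 6 rises, against 41.3% of tested genes, nor in the fall of EGR3, against 32.5%. The median log2 change was 0.40, beside 0.08 over all tested genes. In both lines 6 members rose, FOS, JUN, JUND, IER2, IER3 and EGR2, the last with few counts under the JeKo-1 label, against 24.1% of tested genes.

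**Figure D1:**
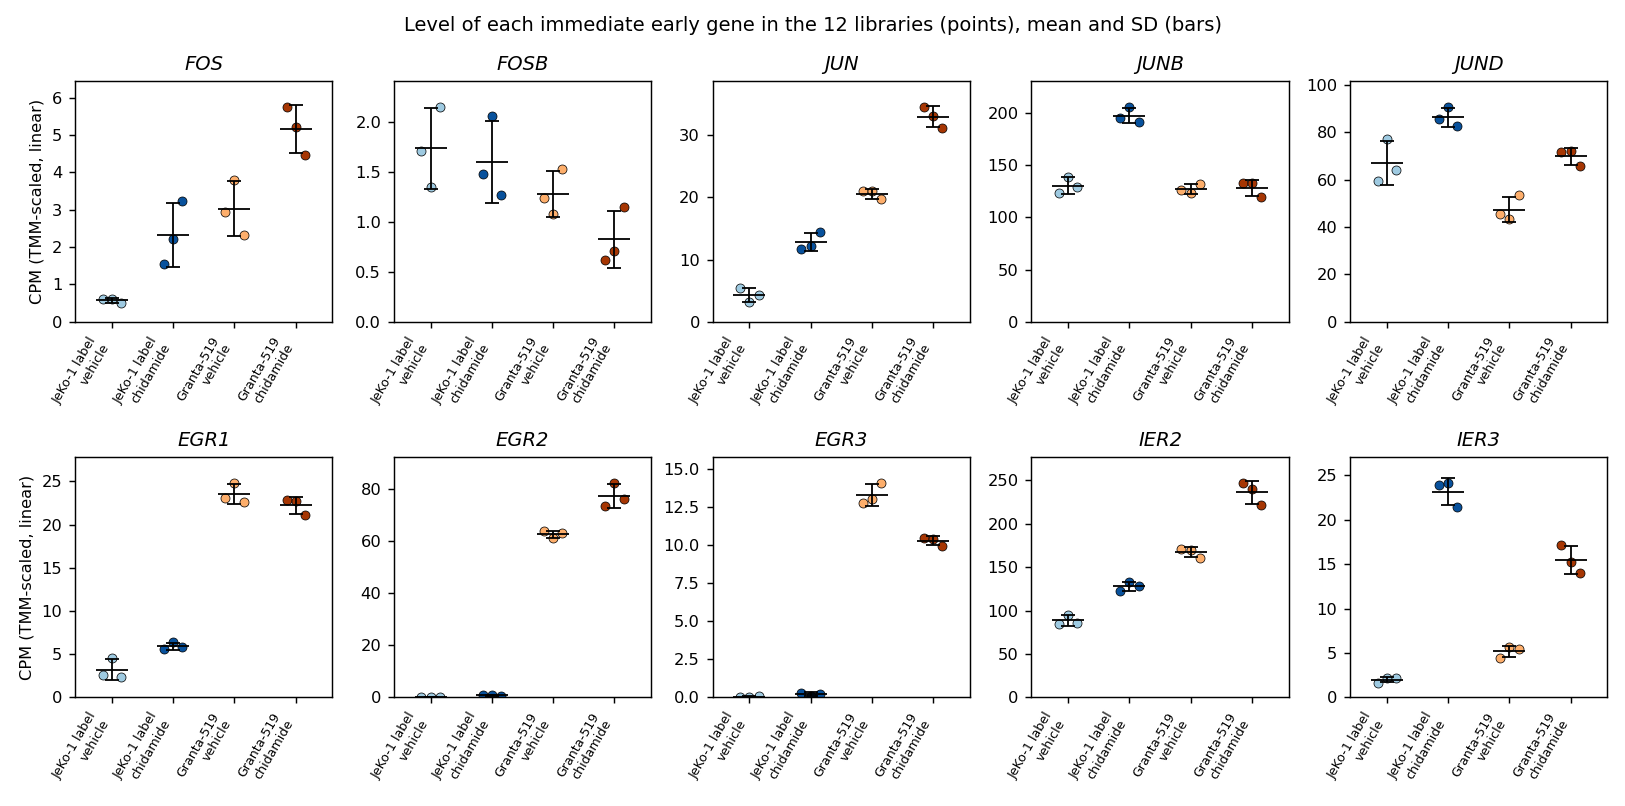
CPM (TMM-scaled, linear axes from 0, a separate axis for each gene) of the 10 members in the 12 libraries; points are libraries, horizontal bars the mean and whiskers the SD of 3. IER3 rises from 2.02 to 23.2 CPM under the JeKo-1 label and from 5.18 to 15.5 CPM in Granta-519, and EGR2 and EGR3 sit near 0 in both groups labelled JeKo-1.

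FOS, the AP-1 partner that cannot pair with itself, was scarce in all groups. In vehicle libraries labelled JeKo-1 it had 0.615, 0.600 and 0.497 CPM (9, 8 and 6 counts), and with chidamide 1.54, 2.21 and 3.25 CPM (26, 31 and 51 counts). All 3 treated libraries were above all 3 vehicle libraries, with a wide spread among the treated. The log2 change was 2.00 ± 0.35 (approximate SE; edgeR adjusted p = 1.72e-06). In Granta-519 FOS went from 2.93, 3.80 and 2.33 CPM to 5.75, 5.23 and 4.47 CPM, again without overlap. The log2 change there was 0.76 ± 0.22 (edgeR adjusted p = 0.00152). The rise was larger under the JeKo-1 label by 1.23 ± 0.43 on the log2 scale (edgeR adjusted p = 0.0172), a call lost without JeKo-1 label chidamide replicate 3 (edgeR adjusted p = 0.109) or Granta-519 vehicle replicate 2 (0.0647; 0.00434 to 0.13 over all alternatives). The order of levels was vehicle then chidamide under the JeKo-1 label, then vehicle and chidamide in Granta-519, and the middle groups of this order overlapped.

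FOSB, a close relative of FOS, did not follow it. Under the JeKo-1 label it stood at 1.71, 1.35 and 2.15 CPM in vehicle and 1.48, 2.06 and 1.27 CPM in chidamide, and in Granta-519 at 1.24, 1.08 and 1.53 CPM and 0.617, 0.706 and 1.15 CPM. The treated and untreated libraries overlapped in both lines. The log2 changes of −0.12 ± 0.31 and −0.62 ± 0.37 did not pass (edgeR adjusted p = 0.776 and 0.126), and the first of these turned positive under upper-quartile and library-size scaling. The counting ratio of chidamide to vehicle was 0.920 under the JeKo-1 label (95% exact interval 0.653 to 1.30, counting error only), so at this depth a change of that size was not detectable. In Granta-519 it was 0.647 (0.415 to 0.996), an interval below 1 that leaves out the spread between libraries, which the edgeR test includes. FOSB overlaps ERCC1, a DNA repair gene on the other strand, and whether counting used strand is not given in the sources used here.

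JUN, the AP-1 subunit named c-Jun, rose in both lines. Under the JeKo-1 label it went from 5.47, 3.15 and 4.31 CPM to 11.7, 12.2 and 14.5 CPM. In Granta-519 it went from 21.1, 21.0 and 19.7 CPM to 34.5, 33.1 and 31.2 CPM. No library of any group overlapped another group's, and even treated libraries labelled JeKo-1 stayed below untreated Granta-519. The log2 change was 1.56 ± 0.14 under the JeKo-1 label (edgeR adjusted p = 1.54e-14) and 0.68 ± 0.09 in Granta-519 (edgeR adjusted p = 5.98e-09), and these differed by 0.88 ± 0.17 (edgeR adjusted p = 3.26e-05).

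JUNB, a JUN relative with weaker activating function and high in lymphoid tumours, rose under the JeKo-1 label. It went there from 123, 139 and 129 CPM to 195, 206 and 192 CPM, with no overlap, a log2 change of 0.60 ± 0.05 (edgeR adjusted p = 7.18e-16). In Granta-519 it stood at 126.5, 123 and 132 CPM in vehicle and 133, 133 and 119 CPM in chidamide, which overlapped (0.01 ± 0.05; edgeR adjusted p = 0.843). The changes differed by 0.59 ± 0.07 (edgeR adjusted p = 8.45e-10). Vehicle levels did not differ detectably between lines (0.04 ± 0.05; edgeR adjusted p = 0.505), so that treated libraries labelled JeKo-1 stood apart from the other 3 groups. JUNB overlaps HOOK2, a gene on the other strand that links cargo to microtubules. HOOK2 rose from 29.9 ± 3.73 to 45.0 ± 0.706 CPM under the JeKo-1 label and from 10.2 ± 0.959 to 28.5 ± 1.60 CPM in Granta-519 (SD, n = 3), a log2 change of 0.59 ± 0.08 and 1.49 ± 0.10. Sharing of reads between the 2 genes was not tested. IER2, IER3 and EGR3 overlap annotated genes on the other strand that were not analysed here.

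JUND, which keeps AP-1 present in resting cells, rose in both lines. Under the JeKo-1 label it went from 59.5, 77.4 and 64.1 CPM to 85.7, 90.8 and 82.9 CPM, and in Granta-519 from 45.4, 43.5 and 53.4 CPM to 71.8, 72.0 and 65.8 CPM. Neither pair of groups overlapped, whereas untreated libraries labelled JeKo-1 overlapped treated Granta-519. The log2 changes were 0.37 ± 0.07 (edgeR adjusted p = 2.88e-05) and 0.56 ± 0.08 (edgeR adjusted p = 3.35e-08). Their difference of −0.19 ± 0.11 did not pass (edgeR adjusted p = 0.15), but it did without JeKo-1 label vehicle replicate 1 (edgeR adjusted p = 0.0234) or Granta-519 vehicle replicate 3 (0.0225; up to 0.98 over all alternatives).

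In vehicle the EGR genes separated the lines most of all members. EGR1, the founding zinc finger factor of the family, had 2.60, 4.57 and 2.40 CPM in vehicle and 5.55, 6.40 and 5.79 CPM in chidamide under the JeKo-1 label. The highest vehicle library, replicate 2, still lay below all treated ones. The log2 change was 0.88 ± 0.18 (edgeR adjusted p = 1.60e-05). In Granta-519 it stood at 23.1, 24.9 and 22.7 CPM and at 22.9, 22.7 and 21.1 CPM, which overlapped (−0.08 ± 0.10; edgeR adjusted p = 0.467). The difference between these changes was 0.96 ± 0.20 (edgeR adjusted p = 9.86e-05). Untreated Granta-519 held more EGR1, with a log2 difference of −2.88 ± 0.14 for the JeKo-1 label minus Granta-519 (edgeR adjusted p = 5.05e-26).

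EGR2, a regulator that restrains lymphocyte activation, was nearly silent under the JeKo-1 label. It had 0, 1 and 0 counts in the vehicle libraries and 14, 14 and 7 counts in the chidamide libraries, where it reached 0.827, 0.996 and 0.446 CPM. The ratio of chidamide to vehicle was 30.0, with a 95% exact interval of 5.04 to 1220 that covers counting error only. The rise passed (edgeR adjusted p = 6.32e-07), and the fitted size depends on 1 read: the log2 change of 4.50 ± 0.76 became 6.49 without vehicle replicate 2. In Granta-519 EGR2 was at 64.0, 61.3 and 63.1 CPM in vehicle and at 73.8, 82.6 and 76.1 CPM in chidamide, with no overlap and a log2 change of 0.30 ± 0.07 (edgeR adjusted p = 7.70e-05). That call was lost in limma on log2(score + 0.01), with a change of 0.29 and an adjusted p of 0.225 (7.26e-07 to 0.225 over all alternatives). After the drug Granta-519 still held 103 times the EGR2 of the libraries labelled JeKo-1 (95% exact interval 74.2 to 149, counting error only). The fitted difference between the drug effects was 4.20 ± 0.78 on the log2 scale (edgeR adjusted p = 1.35e-05) and rests on the same vehicle counts. It was lost in limma on log2(score + 0.1), with an adjusted p of 0.232 (2.98e-07 to 0.232 over all alternatives).

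EGR3, which acts beside EGR2 in lymphocytes, had 0, 0 and 1 counts in vehicle and 5, 1 and 4 counts in chidamide under the JeKo-1 label. These libraries overlapped in CPM. The ratio was 8.57 (95% exact interval 1.22 to 372, counting error only), and the call of a rise (edgeR adjusted p = 0.0196) was lost without vehicle replicate 1 (0.0829), vehicle replicate 2 (0.0735) or chidamide replicate 1 (0.0772; 0.00729 to 0.169 over all alternatives). The fitted log2 change of 2.73 ± 1.05 became 4.73 without vehicle replicate 3. In Granta-519 EGR3 went from 12.8, 13.0 and 14.1 CPM down to 10.5, 10.5 and 9.97 CPM, and it fell by 0.37 ± 0.13 on the log2 scale (edgeR adjusted p = 0.00905). That call was lost with upper-quartile scaling (edgeR adjusted p = 0.0532) and in DESeq2 (adjusted p = 0.0501; 0.000364 to 0.142 over all alternatives). The changes of the lines differed by 3.1 ± 1.05 (edgeR adjusted p = 0.0148), a call also lost without vehicle replicate 1 (0.0657), vehicle replicate 2 (0.0565) or chidamide replicate 1 (0.0694) of the JeKo-1 label, where all alternatives gave 0.00256 to 0.0694.

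IER2, a nuclear protein gene induced by growth factors, rose in both lines. It went from 84.6, 95.4 and 85.9 CPM to 122, 133 and 128 CPM under the JeKo-1 label and from 171, 170 and 161 CPM to 247, 240 and 221 CPM in Granta-519. The 4 groups did not overlap. The log2 changes were 0.53 ± 0.05 (edgeR adjusted p = 4.00e-13) and 0.50 ± 0.05 (edgeR adjusted p = 1.42e-13). Their difference of 0.03 ± 0.07 did not pass (edgeR adjusted p = 0.811), although without a filter on low counts it came to 0.19 and passed (0.028; up to 1.0 over all alternatives).

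IER3, a stress-induced gene that modulates apoptosis and NF-kB, showed the largest called rise among members with more than 3 counts in each group. Under the JeKo-1 label it went from 1.64, 2.18 and 2.24 CPM to 23.9, 24.2 and 21.4 CPM, and in Granta-519 from 4.43, 5.63 and 5.47 CPM to 17.2, 15.3 and 14.0 CPM. No group overlapped another. The log2 change was 3.53 ± 0.15 (edgeR adjusted p = 1.61e-27) against 1.58 ± 0.13 (edgeR adjusted p = 4.37e-16), a difference of 1.95 ± 0.22 (edgeR adjusted p = 1.29e-10). It was the member whose order between lines turned: in vehicle it was lower under the JeKo-1 label (log2 difference −1.37 ± 0.20, edgeR adjusted p = 8.66e-09), and in chidamide higher by 0.58 ± 0.10 (edgeR adjusted p = 1.39e-06). Among all tested genes its change ranked 643 from the top under the JeKo-1 label and 1721 in Granta-519.

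**Figure D2:**
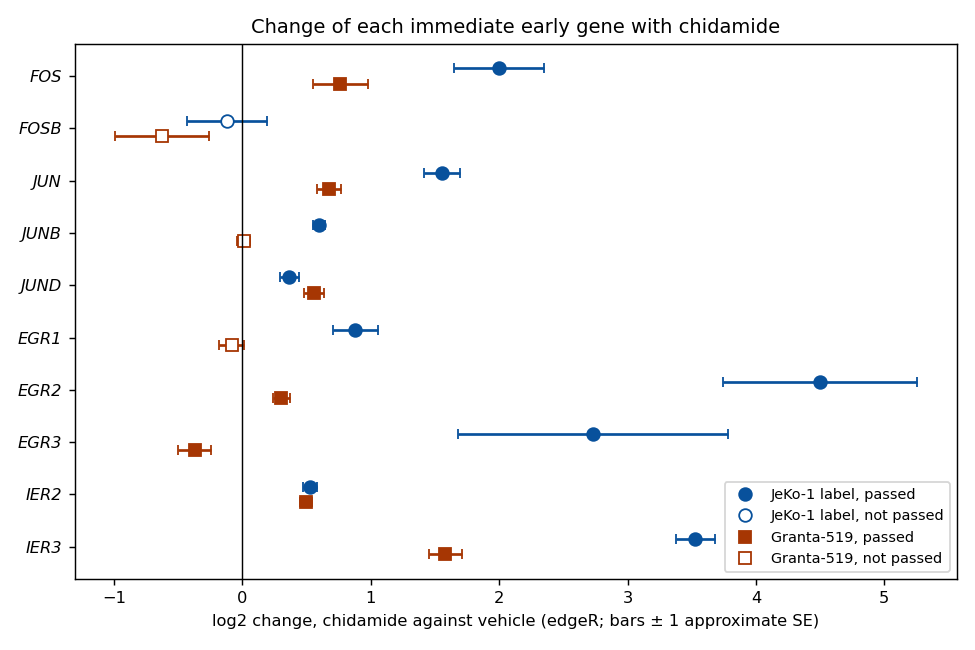
Log2 change of each member, chidamide against vehicle, from edgeR (x axis) with bars of 1 approximate SE; circles are the libraries labelled JeKo-1, squares Granta-519, filled where the change passed an adjusted p of 0.05. The wide bars of EGR2 and EGR3 under the JeKo-1 label rest on 1 vehicle count each, and FOSB is open in both lines.

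The test of the difference between lines passed for 7 members, FOS, JUN, JUNB, EGR1, EGR2, EGR3 and IER3, each with the higher value under the JeKo-1 label, and for 0 in the other direction, against 20.0% and 19.5% of tested genes (edgeR). Of all calls of a difference, 50.6% were in that direction, or 70.0% with library-size scaling and 72.9% with no filter on low counts. In vehicle, 7 members were lower under the JeKo-1 label, FOS, JUN, EGR1, EGR2, EGR3, IER2 and IER3, and 1, JUND, was higher, against 44.3% and 35.5% of tested genes. After chidamide 6 members were lower and 4 higher there, against 45.3% and 36.4%. The 4 were FOSB, JUNB, JUND and IER3. The FOSB call (0.94 ± 0.36; edgeR adjusted p = 0.014) was lost without JeKo-1 label chidamide replicate 2 (0.0928) or Granta-519 chidamide replicate 1 (0.0784) or 2 (0.0572), with 0.00705 to 0.0928 over all alternatives. The contrasts share libraries, so these counts are not independent of one another. EGR2 and EGR3 are in each of these counts of called members and passed the filter on low counts only through Granta-519, where they are high.

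Between genes, levels were compared on the deposited length-scaled score. For 9 members the constant behind this score was 0.697 to 1.30 times what the length of their longest GENCODE 29 transcript gives over 13332 genes, but 5.51 times for IER3, so IER3 was left out. On this scale JUNB led under the JeKo-1 label, with 13.3 ± 0.761 in vehicle and 22.1 ± 0.765 in chidamide (SD, n = 3), followed by IER2 and JUND in both groups. In Granta-519 IER2 led, with a score of 16.7 ± 0.579 and then 23.5 ± 1.30, ahead of JUNB with 14.3 ± 0.509 and 14.4 ± 0.851. IER2 has the lowest constant of the 9, 0.697 against 0.997 for JUNB and 1.053 for JUND. Scaled to the longest transcript, JUNB would lead in Granta-519 vehicle, and JUND would stand above IER2 in both groups labelled JeKo-1. These orders depend on the length taken. BATF, a lymphocyte partner of JUN proteins without an activating domain of its own, had a score of 2.44 ± 0.197 and 2.63 ± 0.415 under the JeKo-1 label, and of 7.26 ± 0.421 and 4.55 ± 0.167 in Granta-519. In all 4 groups its score was above those of FOS, FOSB, FOSL1 and FOSL2.

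**Figure D3:**
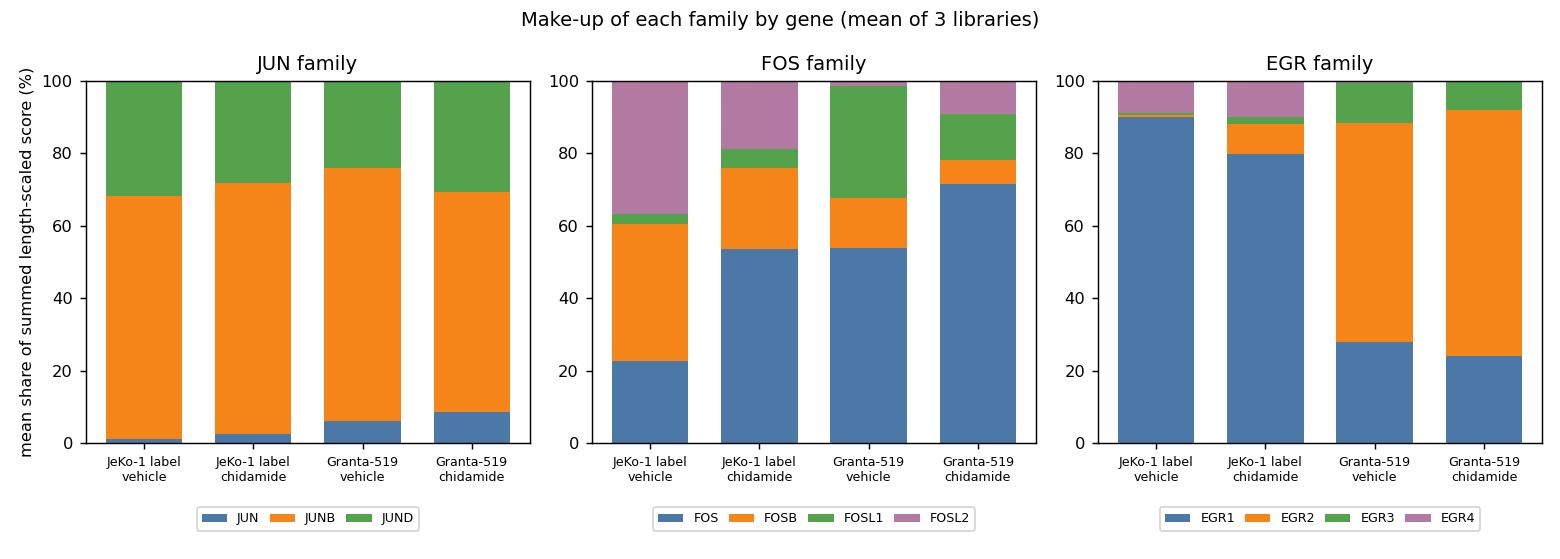
Mean share (%) of each gene in the summed length-scaled score of its family, by group (3 libraries each). JUNB holds 60.8% to 69.8% of the JUN family in every group, whereas EGR1 holds 90.2% of the EGR family in vehicle under the JeKo-1 label and EGR2 60.5% in Granta-519 vehicle.

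JUNB held most of the JUN family in every group. It had 67.1% ± 1.38 of the summed score in vehicle and 69.4% ± 0.0606 in chidamide under the JeKo-1 label, and 69.8% ± 0.966 and 60.8% ± 0.345 in Granta-519 (SD, n = 3). The share of JUN went from 1.23% ± 0.419 to 2.46% ± 0.343 and from 6.18% ± 0.518 to 8.53% ± 0.208. In the FOS family the share of FOS went from 22.8% ± 6.80 to 53.6% ± 8.58 under the JeKo-1 label and from 53.9% ± 5.03 to 71.5% ± 4.89 in Granta-519. FOSL1, the gene of FRA1, went from 31.0% ± 2.64 to 12.8% ± 3.20 of that family in Granta-519. The summed score of the EGR family was 0.209 ± 0.0755 and 0.482 ± 0.0527 under the JeKo-1 label, against 5.47 ± 0.018 and 5.97 ± 0.25 in Granta-519. Shares are a description and had no test.

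Other genes of the pathway were taken from lists written for this work with earlier results of these data known. Under the JeKo-1 label 17 of 28 tested other immediate early genes rose and 4 fell, and in Granta-519 21 rose and 3 fell (edgeR, against the shares of all tested genes given above). SGK1, a serum-induced kinase gene, rose from 19.1 to 90.7 CPM under the JeKo-1 label and from 3.23 to 16.7 CPM in Granta-519. TIPARP, an ADP-ribosyltransferase gene, rose from 9.52 to 29.5 CPM under the JeKo-1 label and from 13.9 to 27.7 CPM in Granta-519. RHOB, a small GTPase gene, rose from 5.09 to 18.2 CPM in Granta-519. ZFP36L2, which speeds the decay of AU-rich messages, fell from 91.7 to 39.2 CPM and from 83.9 to 64.7 CPM, in the order JeKo-1 label and Granta-519. SIK1, a CREB coactivator kinase gene, fell from 51.9 to 29.1 CPM under the JeKo-1 label and rose from 12.8 to 29.1 CPM in Granta-519. PPP1R15A, a stress phosphatase subunit gene, rose from 9.59 to 20.4 CPM under the JeKo-1 label and fell from 57.8 to 49.4 CPM in Granta-519. The median log2 change of this list was 0.56 under the JeKo-1 label and 0.73 in Granta-519. KLF2, KLF4 and RHOB had 0 CPM in both groups labelled JeKo-1, so no change could be called. They enter the median there as 0.

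Of 14 feedback inhibitors of MAP kinases 7 rose and 2 fell under the JeKo-1 label, where 35.3% of all tested genes rose and 31.1% fell. In Granta-519 11 rose and 2 fell, where 39.6% of all tested genes rose and 31.3% fell. The median log2 changes were 0.75 and 0.96. Under the JeKo-1 label DUSP4, SPRY1 and SPRY2 had 0 CPM in both groups and SPRY4 0 and 0.0197 CPM. These genes stay in the 14 and in the median, so the 7 and the 11 do not compare the same expressed genes. SPRED2, which blocks RAF activation, rose from 11.4 to 43.0 CPM and DUSP5, an ERK phosphatase gene, from 11.6 to 38.5 CPM under the JeKo-1 label. In Granta-519 SPRED2 rose from 32.4 to 44.9 CPM and DUSP5 from 28.9 to 66.1 CPM. SPRY1, another ERK pathway inhibitor, rose from 1.24 to 8.99 CPM and DUSP4 from 9.72 to 24.4 CPM in Granta-519. DUSP7 fell from 62.3 to 26.1 CPM and from 21.3 to 17.0 CPM in the 2 lines, and DUSP2 rose from 94.6 to 159 CPM under the JeKo-1 label and fell from 111 to 98.7 CPM in Granta-519. The 31 MAP kinase cascade genes moved both ways, with 15 higher and 13 lower (48.4% and 41.9%) under the JeKo-1 label. In Granta-519 15 were higher and 12 lower (48.4% and 38.7%), beside the shares of all tested genes given above. The medians were 0.11 and 0.16. MAP2K6, the p38 kinase kinase gene, rose from 6.16 to 21.1 CPM and from 15.2 to 28.6 CPM, while HRAS fell from 57.4 to 27.1 CPM and from 32.9 to 17.6 CPM.

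Of 14 serum response and CREB regulators 5 rose and 6 fell under the JeKo-1 label, where 35.3% of all tested genes rose and 31.1% fell. In Granta-519 6 rose and 4 fell, where 39.6% of all tested genes rose and 31.3% fell. The median log2 changes were −0.08 and −0.01. FHL2, 1 of the 14, had 0 CPM in both groups labelled JeKo-1. Binding of these regulators to the members' promoters was not measured. ELK3, an ETS partner of serum response factor that can repress, rose from 4.02 to 14.2 CPM and from 21.3 to 45.8 CPM, and ELK1, an activating partner, fell from 62.1 to 41.5 CPM and from 76.3 to 46.0 CPM. SRF itself fell from 154 to 114 CPM under the JeKo-1 label and from 110 to 90.1 CPM in Granta-519. CREBBP, the acetyltransferase that CREB recruits, fell from 128 to 96.5 CPM and from 178 to 119 CPM. NAB2, a corepressor of EGR proteins that EGR1 induces, fell from 23.4 to 18.5 CPM and from 71.4 to 42.4 CPM, and the related NAB1 rose from 35.5 to 46.8 CPM under the JeKo-1 label. These were the 2 tested genes of the 4 other EGR family and corepressor genes.

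Of 13 tested other AP-1 family genes 4 rose and 4 fell (30.8% each) under the JeKo-1 label, where 35.3% of all tested genes rose and 31.1% fell. In Granta-519 7 rose and 4 fell (53.8% and 30.8%), where 39.6% of all tested genes rose and 31.3% fell. ATF3, a stress-induced relative, rose from 5.99 to 14.2 CPM and BATF3 from 4.05 to 8.11 CPM in Granta-519, where BATF fell from 33.4 to 21.0 CPM. Under the JeKo-1 label ATF3 rose from 0.176 to 1.90 CPM, and BATF stood at 12.4 and 12.2 CPM. MAFG, a small MAF protein gene, fell in both lines, from 65.6 to 45.0 CPM and from 103 to 74.3 CPM. Of 13 tested genes for the turnover of AP-1 proteins and messages 4 rose and 7 fell (30.8% and 53.8%) under the JeKo-1 label. In Granta-519 3 rose and 8 fell (23.1% and 61.5%). STUB1, a ubiquitin ligase gene, went down from 47.0 to 25.1 CPM and from 40.1 to 20.1 CPM. ZFP36L1, a relative of ZFP36L2, went up from 274 to 491 CPM and from 256 to 374 CPM. All 18 B-cell activation genes rose under the JeKo-1 label, among them CD69, an early activation antigen, from 2.34 to 21.6 CPM, and CD83 from 161 to 735 CPM. In Granta-519 14 of the 18 rose and 1, the NF-kB inhibitor gene NFKBID, fell by 0.22 on the log2 scale. There CD69 rose from 31.8 to 66.5 CPM and CD83 from 57.3 to 128 CPM. CD86 rose there from 6.58 to 28.2 CPM and RGS1, a G-protein regulator gene, from 45.3 to 157 CPM. The median log2 change of the B-cell activation genes was 1.25 under the JeKo-1 label and 0.60 in Granta-519, that of the turnover genes −0.25 and −0.32, and that of the other AP-1 genes −0.10 and 0.15.

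**Figure D4:**
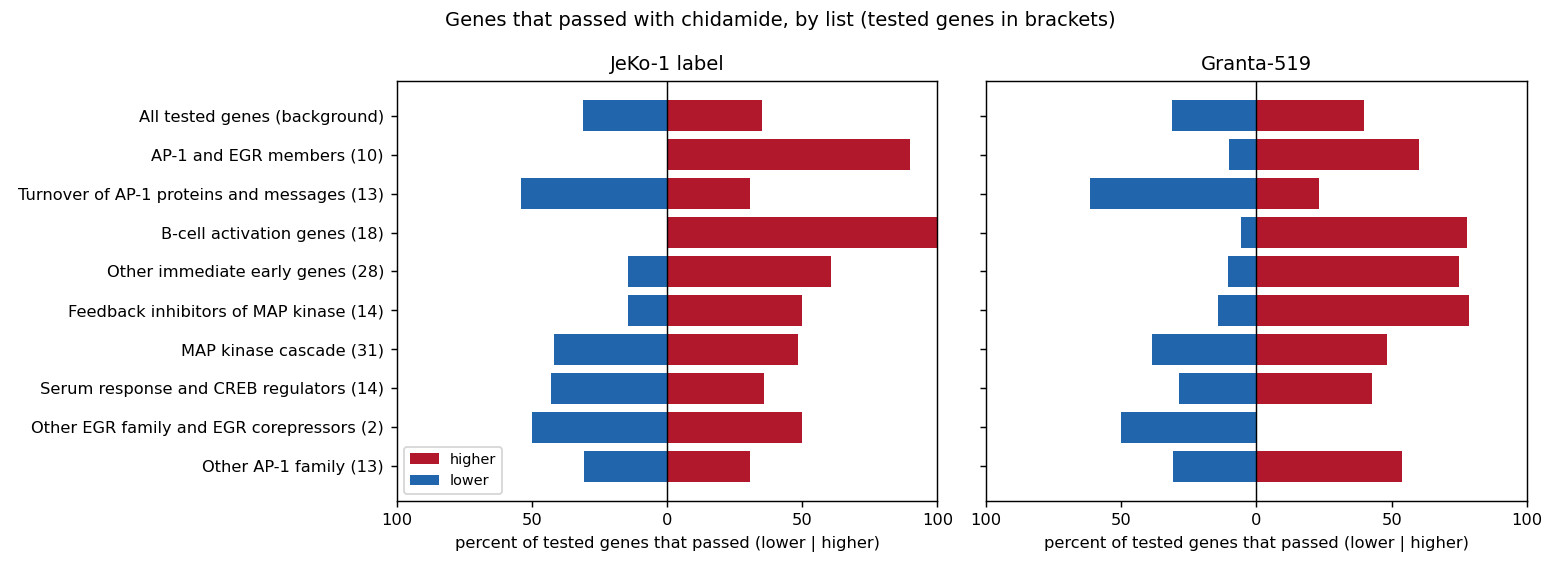
Percent of tested genes that passed as higher (right, red) or lower (left, blue) with chidamide in each list, with the number of tested genes in brackets and all tested genes in the top bar. B-cell activation genes are 100% higher under the JeKo-1 label and 77.8% in Granta-519, against 35.3% and 39.6% of all tested genes.

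The genes with the pattern most like each member were ranked by Pearson correlation of log2 CPM over the 12 libraries among 10803 genes, which reflects mainly the 4 group levels that all share. IER5, another immediate early gene, was second for IER2 (r = 0.994), with 59.3, 124, 190 and 325 CPM in JeKo-1 label vehicle, JeKo-1 label chidamide, Granta-519 vehicle and Granta-519 chidamide, behind AACS, an acetoacetate enzyme gene (r = 0.996). SLAMF7, a lymphocyte surface receptor gene, was first for IER3 (r = 0.994), with 13.4, 51.7, 21.5 and 45.2 CPM in the same order. CD40, the B-cell costimulatory receptor gene, was second for JUNB (r = 0.966), with 153, 262, 133 and 144 CPM. PTTG1, the securin gene, was second for JUN (r = 0.994) and DOK1, an adaptor gene, first for EGR1 (r = 0.995). DNAJC1 led for FOS (r = 0.981), TUBB6, a tubulin gene, for JUND (r = 0.967), C12orf57 for EGR2 (r = 0.998) and ARHGEF34P for EGR3 (r = 0.998), and RAB28 for FOSB (r = 0.932).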

How the data were processed

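Polyadenylated RNA was sequenced from 12 libraries, 3 in each of 4 groups taken from the library titles. The authors deposited unnormalized counts for each gene symbol. The submitters' processing notes name STAR and hg19. No version, counter, annotation or strandedness is given in the sources used here. The authors also deposited a length-scaled score, named TPM in the table, whose columns summed to 81790 to 84121. It was used to compare levels between genes, and in alternatives. Date-like names held 0.26% of counts and stayed in the totals.

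The test on counts was that of edgeR 4.0.16 (R 4.3.3), with filterByExpr by group, TMM, robust glmQLFit with 4 group means over the 12 libraries (8 residual degrees of freedom), glmQLFTest, and Benjamini-Hochberg over 15087 genes at 0.05. The SE was back-calculated from the log2 change and F. The fit was tested on simulated data. All 10 members are named. Of each list, the 2 largest rises and falls per line among genes that passed with a mean of 5 CPM or more were eligible for naming, and the text names a part of them. Like patterns were the 2 highest correlations. Members and lists were chosen with earlier results of these data known. Alternatives used other scalings, no filter, DESeq2 1.42.0, limma 3.58.1 on log2(score + 0.1) and log2(score + 0.01), the compared groups alone, a replicate block, and each library left out.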

Additional observations from a re-analysis of the deposited data

Results flagged for a closer look

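The drug effect differed between the lines for 7 members by edgeR's test of the difference, given here as the effect under the JeKo-1 label minus that in Granta-519 on the log2 scale. All 7 had the higher value under the JeKo-1 label. Of all tested genes, 20.0% passed in that direction and 19.5% in the other. The difference was 1.23 for FOS, 0.88 for JUN, 0.59 for JUNB, 0.96 for EGR1 and 1.95 for IER3. It was 4.20 for EGR2 and 3.1 for EGR3, each with 1 count over the 3 vehicle libraries labelled JeKo-1. Of 20 alternatives, the call was lost in 3 for FOS, 1 for EGR2 and 3 for EGR3. JUNB and EGR1 rose under the JeKo-1 label and had overlapping libraries in Granta-519. No cause of these differences was tested.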

How the results depend on the processing

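Of the 41 calls on members in the 5 comparisons, 34 kept their direction and their side of the threshold in every alternative run. The number of genes that passed stayed within 1.5 times in all comparisons, and leaving out 1 library gave 9560 to 10144 under the JeKo-1 label and 10180 to 11135 in Granta-519. With the replicate block, 10143 and 10776 genes passed and no call on a member changed. Same-numbered libraries had correlations of −0.026 to 0.035 in their deviations from the group mean, so the numbers do not pair them.

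Upper-quartile and library-size scaling moved the median of all genes under the JeKo-1 label by 0.15 and 0.13 on the log2 scale, and library-size scaling that of the difference between lines by 0.13 and of the lines in vehicle by −0.14. Leaving out the filter moved that of the difference by 0.16. Several values that had not passed changed sign. FOSB under the JeKo-1 label became 0.027 with upper-quartile scaling, 0.012 with library-size scaling, 0.007 and 0.013 in limma with pseudocounts of 0.1 and 0.01 and −0.31 to 0.048 with 1 library left out. In Granta-519 JUNB became −0.10 without a filter and −0.058 in its own groups alone, with −0.015 to 0.079 when 1 library was left out, and EGR1 became 0.014 with upper-quartile scaling. JUNB between the lines in vehicle became −0.033 with upper-quartile scaling, −0.10 with library-size scaling, −0.067 without a filter, −0.11 in limma with either pseudocount and −0.02 to 0.068 with 1 library left out. The IER2 difference between lines ran from −0.021 to 0.082 with 1 library left out and reached 0.189 without a filter, where it passed.

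Limma on the score lost calls: with a pseudocount of 0.1, EGR3 under the JeKo-1 label (limma adjusted p = 0.169), and the differences between lines of FOS (0.13) and EGR2 (0.232), and with 0.01, EGR2 (0.225) and EGR3 (0.142) in Granta-519. A pseudocount of 0.1 shrinks changes at low scores by construction. In Granta-519 the changes of EGR2 and EGR3 were 0.29 and −0.37 with 0.01, close to those of edgeR, and the cause of these lost calls was not tested. Depth limits FOS, FOSB, EGR2 and EGR3 under the JeKo-1 label most.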
